A study of Mus musculus with 4 samples.

Results

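The HOX genes are 38 listed members of the Hoxa, Hoxb, Hoxc and Hoxd clusters, measured here in haematopoietic progenitors of the mouse foetal liver. They were taken as every probe set annotated to exactly 1 symbol of the form Hoxa, Hoxb, Hoxc or Hoxd followed by a number, with antisense and opposite-strand genes left out. Of the 38, 33 had a probe set of their own, 48 probe sets in all, out of 18193 genes and 34945 probe sets with 1 symbol. Hoxb8 and Hoxd4 had only probe sets shared with a neighbour, and Hoxa6, Hoxc11 and Hoxc12 were not analysed here. RNA came from lineage-negative, cKit-positive, Sca1-positive (LSK) cells of E13.5 embryos labelled female, the fraction that holds stem cells and multipotent progenitors. All 4 samples had the genotype Hes1 GFP/WT, so the negative cells carried the reporter allele too. Of the 4 Affymetrix arrays, 3 were labelled HES1-GFP negative and 1 HES1-GFP positive. The labels do not say how the reporter allele was built, how many embryos were pooled, or whether the negative samples came from separate sorts, so the spread between them may be partly technical.

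HOX genes encode homeodomain transcription factors that give cells their position along the body axis. They lie in 4 clusters, on chromosomes 6 (Hoxa), 11 (Hoxb), 15 (Hoxc) and 2 (Hoxd), and members with the same number in different clusters are paralogues. HOX proteins bind DNA together with the TALE homeodomain proteins of the PBX and MEIS families. In blood, genes of the Hoxa cluster and some of Hoxb are used by stem and progenitor cells and are lowered as the cells mature, and Hoxa9 with Meis1 drives acute myeloid leukaemia. Trithorax proteins such as Kmt2a keep HOX genes on, Polycomb proteins keep them off, and caudal factors and retinoic acid set their domains in the embryo.

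To show what lies in front of the members that the values below turn on, the 250 bases before the RefSeq start (build GRCm38.p6, minus strand in each case) of Hoxa2, Hoxa9 and Hoxa10 are given 5′ to 3′. Hoxa2 is shown because it lay furthest outside the negative arrays within the Hoxa cluster, Hoxa9 because it is the best known HOX gene of progenitors, and Hoxa10 because its levels were the most spread among members above the median level. Capitals mark matches to 5 short motifs, searched on both strands. They are the HES N box CACNAG, the HES class C site CACGCG, the RBPJ motif TGGGAA, the HOX-PBX motif TGATNNAT and the MEIS motif TGACAG. No matches overlapped in these windows.
Hoxa2, chr6:52164832-52165081: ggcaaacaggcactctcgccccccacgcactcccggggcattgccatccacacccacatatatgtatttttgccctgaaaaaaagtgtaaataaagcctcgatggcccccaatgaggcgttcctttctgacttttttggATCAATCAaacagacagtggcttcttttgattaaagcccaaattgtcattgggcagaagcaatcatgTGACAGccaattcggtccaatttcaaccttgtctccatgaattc
Hoxa9, chr6:52227371-52227620: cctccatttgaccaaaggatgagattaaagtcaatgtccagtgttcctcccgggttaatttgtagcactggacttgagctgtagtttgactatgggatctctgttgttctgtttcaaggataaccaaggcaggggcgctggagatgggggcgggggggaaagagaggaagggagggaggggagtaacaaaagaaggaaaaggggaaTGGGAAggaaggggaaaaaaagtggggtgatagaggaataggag
Hoxa10, chr6:52240855-52241104: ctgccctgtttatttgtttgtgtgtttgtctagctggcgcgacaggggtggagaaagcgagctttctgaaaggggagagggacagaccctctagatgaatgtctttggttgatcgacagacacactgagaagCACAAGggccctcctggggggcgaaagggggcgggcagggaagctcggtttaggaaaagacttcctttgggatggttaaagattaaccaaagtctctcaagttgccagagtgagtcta
In the Hoxa2 window the HOX-PBX motif begins 111 bases and the MEIS motif 44 bases before the start. The Hoxa9 window has an RBPJ motif, the sequence bound by the DNA-binding partner of Notch, 44 bases before the start. The Hoxa10 window has an N box 118 bases before it. RefSeq gives Hoxa10 a further start inside the gene, whose window has a class C site.

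Windows were found for 22 of the 38 members, 24 windows in all. Hoxa4, Hoxb2, Hoxb3, Hoxb5, Hoxb6, Hoxb7, Hoxb9, Hoxb13, Hoxc5, Hoxc6, Hoxc8, Hoxc9, Hoxc10, Hoxc11, Hoxc12 and Hoxc13 had none in the table used. The N box was in 5 of the 24 HOX windows and in 36.7% of all 32851 windows of the same length. The RBPJ motif was in 4 and 21.6%, the class C site in 2 and 7.62%, the HOX-PBX motif in 4 and 7.68%, and the MEIS motif in 2 and 15.9%. Hoxb4 had 2 N boxes, 77 and 10 bases before its start. HOX windows had a median GC content of 58.6%, against 52.4% for all windows, and a median observed over expected CpG ratio of 0.721 against 0.373. A match describes letters and is no evidence of binding.

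Values are log2 intensities of the probe set with the highest mean for each gene. A probe set's brightness depends on its own probes, so levels are compared between arrays and not between genes. Hes1 itself was at 8.78, 9.07 and 6.70 in negative replicates 1, 2 and 3 and at 6.57 in the array labelled positive, the lowest of the 4. The difference was -1.62 with a standard error of 1.08. The Hes1 transcript thus did not follow the label, which names GFP signal and not Hes1 RNA. Every direction given below follows these labels and is bound to that doubt. The median intensity of the arrays was 74.8 to 76.1 on the linear scale. Each of 8 LSK progenitor markers had a mean above the probe-set median, among them Kit at 9.68 to 10.13 over the 4 arrays. This does not set LSK cells apart from others. All 8 endothelial, 7 hepatoblast and 6 erythroid markers also had means above it, as did 60.5% of all genes. Sca1 (Ly6a) had no probe set of its own here. Negative replicates 1 and 2 stood apart from negative replicate 3 and the array labelled positive in macrophage, B lineage and granulocyte markers. The endothelial markers did so in their sum, but not in every gene. The summed intensity of 9 macrophage markers in negative replicates 1 and 2 was 19975 and 19115. It was 2638 in replicate 3 and 3156 in the array labelled positive. That of 7 B lineage markers was 17907, 18558, 3694 and 3710 in the same order, and that of 5 granulocyte markers 7182, 7385, 23253 and 23609. For 8 endothelial markers it was 3785, 3136, 1139 and 893. Cdh5, Kdr, Lyve1, Pecam1 and Stab2 followed this split. Tek went the other way, at 6.19, 6.04 and 6.72 in negative replicates 1, 2 and 3 and at 7.36 in the array labelled positive. Tie1 and Esam did not part the arrays in this way. The sums differed less for 6 erythroid markers (17436, 17187, 20038 and 19839) and 5 megakaryocyte markers (2273, 2417, 1429 and 1979). In such bulk samples, fewer cells of a type and less RNA per cell cannot be told apart.

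As a description of the probe sets, which ranks neither genes nor clusters, the mean over the 4 arrays was above the median of all probe sets, 6.24, for 10 of the 33 HOX genes (30.3%), against 60.5% of all genes. These were 5 of 9 Hoxa genes (Hoxa3, Hoxa5, Hoxa7, Hoxa9 and Hoxa10), 2 of 9 Hoxb genes (Hoxb4 and Hoxb13), 2 of 7 Hoxc genes (Hoxc6 and Hoxc9) and 1 of 8 Hoxd genes (Hoxd12). By position, they were 2 of 10 anterior genes (paralogues 1 to 4), 3 of 9 central genes (5 to 8) and 5 of 14 posterior genes (9 to 13). No detection calls were at hand, so a dim probe set is not shown to be absent. Mesenchymal cells of the embryo also use HOX genes. Of 10 mesenchymal and stellate markers, 2 lay above the median level (Pdgfrb and Des), and their summed intensity was 974, 1131 and 982 in negative replicates 1, 2 and 3 and 844 in the array labelled positive. Among them, Lum (3.30 to 3.35 over the arrays) and Lhx2 (3.99 to 4.02) were chosen after their values were seen, and the part of such cells in the HOX values was not tested.

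**Figure D1:**
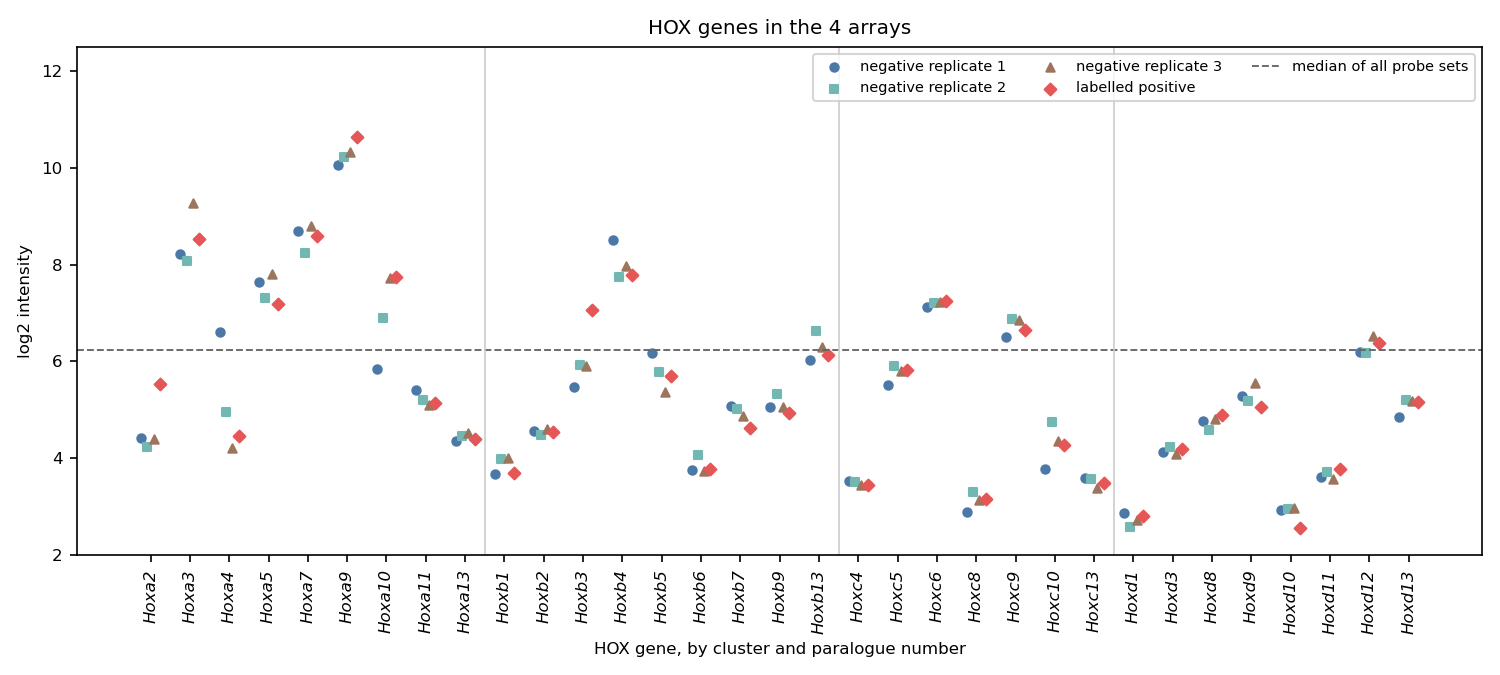
Log2 intensity of the 33 HOX genes in each of the 4 arrays, ordered by cluster and paralogue number, with grey lines between clusters. The dashed line is the median of all probe sets, 6.24, and 10 genes have a mean above it, 5 of them in Hoxa.

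Across the 4 arrays most HOX genes were steady. The median range from the lowest to the highest array was 0.40 log2 units over the 33 genes and 0.54 over all genes. Dim genes vary less on this array, and within the genes at or below the median level the median range was 0.34 for HOX genes and 0.38 for all. Above that level it was 0.58 for HOX genes and 0.70 for all. The range reached 1 log2 unit in 5 of 33 HOX genes, 4 of them in Hoxa (Hoxa2, Hoxa3, Hoxa4 and Hoxa10) and the other Hoxb3. Over all genes it did so in 24.8%. By cluster the median range was 0.62 in Hoxa, 0.46 in Hoxb, 0.36 in Hoxc and 0.32 in Hoxd.

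GFP positive and GFP negative progenitors were compared to ask whether cells sorted with and without GFP signal from the Hes1 reporter differ. limma called 0 of the 33 HOX genes at an adjusted p under 0.05, as it called 0% of all 18193 genes. The unadjusted p was under 0.05 in 2 HOX genes, Hoxa2 and Hoxb3, and in 4.03% of all genes. limma's treat test against a minimum of 0.5 log2 units also called 0, with the same number unadjusted. The single positive array has no spread of its own and was assumed to vary like the negative arrays, and an exact permutation over 4 arrays cannot give a p below 0.25.

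In the array labelled positive, 7 HOX genes lay above the range of the negative arrays, 6 below it and 20 within it. Over all genes 23.6% lay above and 23% below, 46.6% in all. Among the 10 HOX genes above the median level 3 lay above and 1 below, beside 26.4% and 20.3% of all genes at such levels. The median difference was -0.01 log2 units over HOX genes and 0.00 over all genes. The counts move with the arrays kept, since a range over fewer arrays is narrower. Without negative replicate 1, 8 HOX genes lay above and 12 below, beside 30.1% and 34.2% of all genes. Without negative replicate 2 these were 11 and 9, beside 31.1% and 30.3%. Without negative replicate 3 they were 9 and 10, beside 36.1% and 31.4%. With probe sets averaged 4 lay above, beside 24% of all genes. By cluster the median difference was 0.01 in Hoxa, -0.20 in Hoxb, -0.01 in Hoxc and 0.08 in Hoxd. The Hoxa median was 0.14 without negative replicate 3 and -0.11 without negative replicate 2, and the Hoxb median was -0.07 without negative replicate 2. In Hoxb, 8 of 9 genes had a difference below 0, but only Hoxb7 and Hoxb9 lay below the negative range. A difference below 0 was seen in 9141 of all 18193 genes and in 4165 of the 7179 at or below the median level. Some of the Hoxb differences were slight, such as -0.01 in Hoxb2 and -0.07 in Hoxb5.

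**Figure D2:**
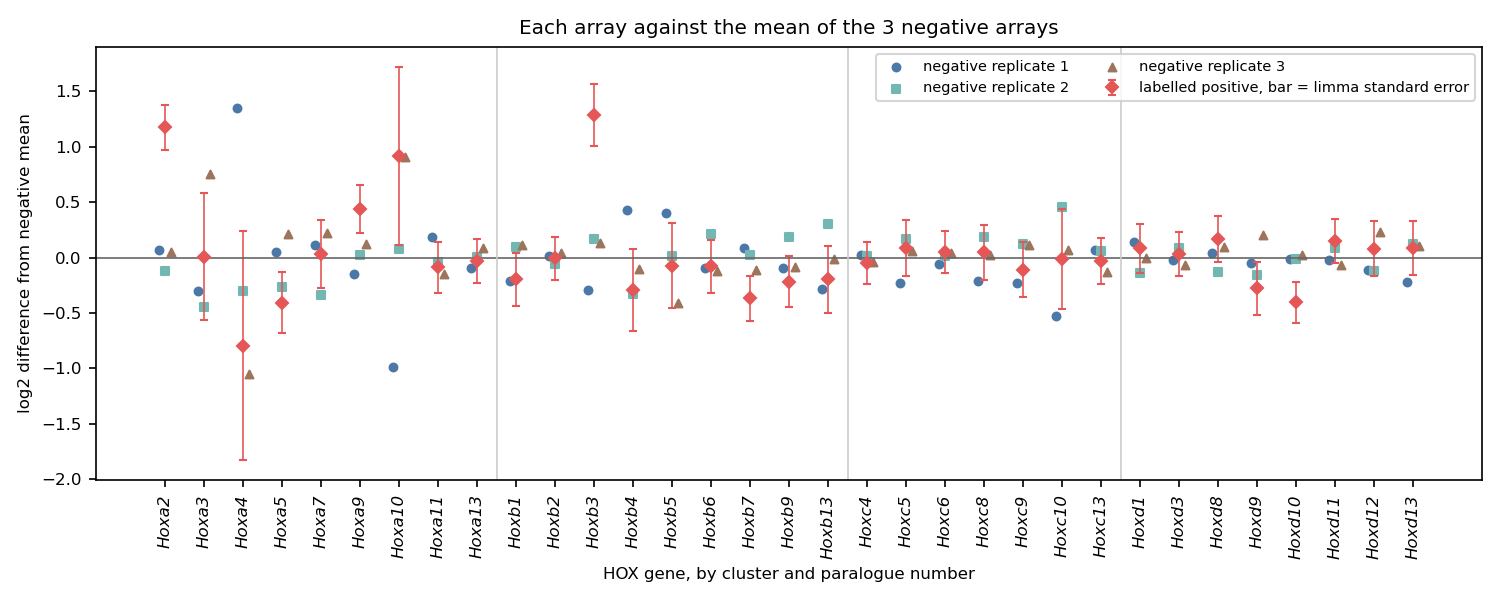
Log2 difference of each array from the mean of the 3 negative arrays for the 33 HOX genes, with limma's standard error on the array labelled positive. Hoxa2 and Hoxb3 lie highest, 1.17 and 1.29 above the negative mean, and most others lie among the negative arrays.

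Among the anterior genes, Hoxa2 and Hoxb3 were the members furthest above the negative arrays. Hoxa2, which patterns the hindbrain and branchial arches, was at 4.41, 4.22 and 4.40 in negative replicates 1, 2 and 3 and at 5.52 in the array labelled positive. The negative arrays lay close together, at 4.34 ± 0.11 (SD, n = 3), and the array labelled positive stood clear of them by 1.10. The difference was 1.17 with a standard error (SE) of 0.21 (limma adjusted p = 0.980). Hoxb3, a hindbrain gene that is also used by early blood progenitors, was at 5.47, 5.93 and 5.90 and at 7.05. Its difference was 1.29 with an SE of 0.28 (limma adjusted p = 1.00). In its second probe set Hoxb3 was at 5.22, 5.02 and 5.08 and at 5.43, so that the array labelled positive again lay highest, by less. A distance of at least 1 log2 unit above the negative range was seen in these 2 of 33 HOX genes and in 0.841% of all genes, and below it in 0 HOX genes and 0.566%. At 0.5 log2 units the same 2 HOX genes lay above, beside 3.58% of all genes, and 0 below, beside 2.36%. Both genes had a mean below the median level, and Hoxa2 had 1 probe set. The span of Hoxb3 overlaps that of Hoxb4, whose own probe sets had the array labelled positive within the negative range. Leaving out any negative array kept Hoxa2 between 1.11 and 1.21 and Hoxb3 between 1.14 and 1.37. The difference of Hoxa2 was 0.77 with a pseudocount of 16, and that of Hoxb3 was 0.80 with its probe sets averaged.

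Other anterior genes with wide ranges did not follow the labels. Hoxa3, needed for thymus and parathyroid, was at 8.22, 8.08 and 9.28 in negative replicates 1, 2 and 3 and at 8.53 in the array labelled positive. Negative replicate 3 was the highest of the 4. The difference was 0.01 with an SE of 0.57, and it was -0.04 after cyclic loess and with probe sets averaged. The RefSeq span of Hoxa3 overlaps those of Hoxa4, Hoxa5 and Hoxa6, so a probe set there may read more than 1 gene. Hoxa4 was at 6.61, 4.96 and 4.20 in the negative replicates and at 4.46 in the array labelled positive. A single negative array was thus high. Its second probe set had the same array highest, at 4.65 against 3.72, 3.47 and 3.65. Hoxb4, whose forced expression expands haematopoietic stem cells, was at 8.50, 7.75 and 7.97 and at 7.79. The array labelled positive lay within the negative range, with a difference of -0.29 and an SE of 0.37.

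The central genes Hoxa5 and Hoxa7, often high in leukaemias with Kmt2a rearrangement, gave no common direction. Hoxa7 was at 8.68, 8.23 and 8.79 in negative replicates 1, 2 and 3 and at 8.60 in the array labelled positive, inside the negative range. Its difference was 0.03 and turned to -0.02 after cyclic loess. Hoxa5 was at 7.64, 7.31 and 7.80 and at 7.18, just below the negative range, with a difference of -0.41 and an SE of 0.28. That probe set is of a type whose probes may match other transcripts. The other Hoxa5 probe set was at 6.37, 6.46 and 8.02 and at 7.35, a difference of 0.40 in the opposite direction. There, negative replicate 3 and the array labelled positive were the higher pair, as they were for the granulocyte markers, whose part here was not tested. Hoxc6 was at 7.13, 7.20 and 7.23 and at 7.24, the steadiest of the genes above the median level, with a range of 0.11.

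Among the posterior genes, Hoxa9 lay above the negative arrays in its first probe set only, and Hoxa10 had the widest spread. Hoxa9, a regulator of stem cell and progenitor growth, was at 10.06, 10.23 and 10.33 in negative replicates 1, 2 and 3 and at 10.65 in the array labelled positive. It lay 0.31 above the highest negative array, with a difference of 0.44 and an SE of 0.22 (limma adjusted p = 1.00). The second Hoxa9 probe set was at 9.30, 9.58 and 9.83 and at 9.40, within the negative range, with a difference of -0.18. Both probe sets ranked the 3 negative arrays alike, and they parted only in the array labelled positive. Hoxa10, which with Hoxa9 acts in myeloid progenitors, was at 5.83, 6.89 and 7.72 and at 7.73. Negative replicate 3 and the array labelled positive were nearly equal and negative replicate 1 was the lowest. Its difference was 0.92 with an SE of 0.80, and 0.43 without negative replicate 1. The granulocyte markers were likewise higher in negative replicate 3 and in the positive-labelled array, with summed intensities of 23253 and 23609 against 7182 and 7385, and their part in the Hoxa10 values was not tested. A dim second probe set of Hoxa10 was at 3.32, 3.38 and 3.74 and at 3.19, with the array labelled positive lowest.

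The other posterior genes above the median level had ranges of 0.35 to 0.58 over the 4 arrays. Hoxb13, a gene of the tail bud and prostate, was at 6.04, 6.62 and 6.30 in negative replicates 1, 2 and 3 and at 6.12 in the array labelled positive. Hoxc9, known from thoracic motor neurons, was at 6.51, 6.87 and 6.86 and at 6.64. Hoxd12, a limb gene, was at 6.18, 6.17 and 6.52 and at 6.37. In all 3 genes the array labelled positive lay within the negative range, with differences of -0.20, -0.11 and 0.08.

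The remaining 20 HOX genes are those that did not meet the rule for values in every array. By that rule none had a mean above the median level, a range of at least 1 or a positive value at least 0.5 outside the negative range. Their means lay between 2.74 (Hoxd1) and 5.76 (Hoxc5), their ranges over the 4 arrays between 0.08 (Hoxc4) and 0.98 (Hoxc10), and their differences between -0.40 (Hoxd10) and 0.17 (Hoxd8). The array labelled positive was above the negative range in 2 (Hoxd8 and Hoxd11), below it in 5 (Hoxb7, Hoxb9, Hoxc4, Hoxd9 and Hoxd10) and within it in 13. Among genes at or below the median level, 19.4% lay above and 27.1% below. The 13 within the range were Hoxa11, Hoxa13, Hoxb1, Hoxb2, Hoxb5, Hoxb6, Hoxc5, Hoxc8, Hoxc10, Hoxc13, Hoxd1, Hoxd3 and Hoxd13. Hoxd10 was at 2.93, 2.94 and 2.97 in negative replicates 1, 2 and 3 and at 2.54 in the array labelled positive. The negative arrays were nearly equal and the array labelled positive lay below them. The probe set shared by Hoxb8 and Hoxb7 was at 3.34, 3.69 and 3.39 and at 2.95. Hoxb7 in its own probe set was also lowest there, at 4.62 against 5.07, 5.01 and 4.87. The 2 probe sets shared by Hoxd4 and Hoxd3 had the array labelled positive within the negative range.

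Several HOX genes were measured more than once, and the repeats did not always lie on the same side of the negative mean. Of 11 genes with several probe sets, 3 (Hoxa4, Hoxb3 and Hoxd8) had all of them on the same side of the negative mean and 8 did not. The 8 were Hoxa3, Hoxa5, Hoxa9, Hoxa10, Hoxb4, Hoxc5, Hoxc6 and Hoxd13. Some of them stayed near 0, such as Hoxc6, from -0.08 to 0.05, and Hoxd13, from -0.10 to 0.09, while Hoxa5 ran from -0.41 to 0.40. The share of all genes with several probe sets that part in this way was not counted. The count is thus not shown to be particular to HOX genes. In Hoxd8 both differences were small, 0.17 and 0.06. The values of Hoxc5 are added after they were seen. Its dimmest probe set was at 3.41, 4.85 and 3.49 in negative replicates 1, 2 and 3 and at 3.27 in the array labelled positive, while its brightest was at 5.51, 5.91 and 5.79 and at 5.82. In the dimmest, negative replicate 2 alone was high, and the difference was -0.65.

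**Figure D3:**
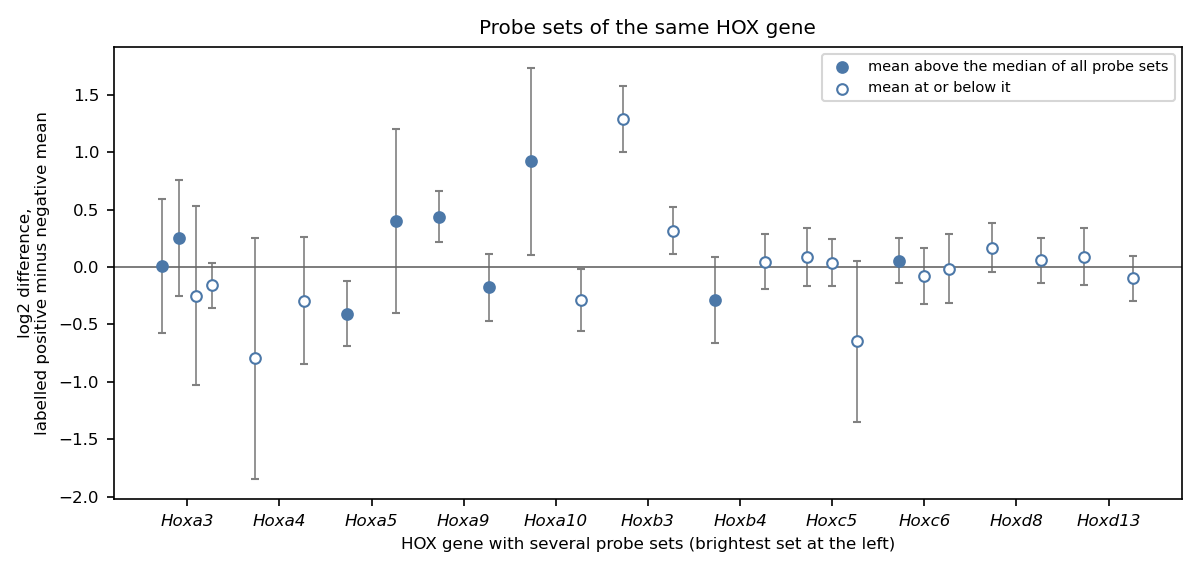
Log2 difference between the array labelled positive and the mean of the 3 negative arrays for each probe set of the 11 HOX genes with several, with limma's standard error from the fit of all probe sets. In 8 of the 11 genes the probe sets lie on both sides of 0, among them Hoxa5 at -0.41 and 0.40.

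The array labelled positive was nearest to negative replicate 1 in 11 HOX genes, to replicate 2 in 10 and to replicate 3 in 12. Over all genes these shares were 30.6%, 28.1% and 41.3%. In Hoxc it was nearest to replicate 3 in 5 of 7 genes and in Hoxb in 1 of 9. The median absolute difference between the array labelled positive and negative replicate 3 was 0.15 over HOX genes and 0.21 over all genes. That between negative replicates 1 and 2 was 0.28 and 0.26, and that between negative replicates 2 and 3 was 0.16 and 0.27.

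limma called 0 of the TALE cofactors of HOX proteins. Of 8 measured, 2 lay above the negative range, 2 below it and 4 within it, near the 23.6% and 23% of all genes above and below, with a median difference of -0.13, which was 0.01 without negative replicate 1. Meis1, the partner of Hoxa9 in leukaemia, was at 8.90, 8.68 and 9.13 in negative replicates 1, 2 and 3 and at 9.32 in the array labelled positive. All 3 Meis1 probe sets had a difference above 0, of 0.42, 0.79 and 0.36, and in the last of these the array labelled positive lay within the negative range. Pbx3, another leukaemia partner, was at 6.82, 6.10 and 5.95 and at 7.69. Its difference was 1.40 with an SE of 0.43 (limma adjusted p = 1.00), and its second probe set, at 6.14, 4.67 and 6.22 and at 6.09, lay within the negative range.

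limma called 0 of the chromatin regulators of HOX genes, 11 trithorax and elongation genes and 14 Polycomb genes, with 0 and 2 at an unadjusted p under 0.05, beside 4.03% of all genes. Of the 11 trithorax and elongation genes 1 lay above the negative range and 2 below, beside 23.6% and 23% of all genes. Their median difference was -0.06, which was 0.05 without negative replicate 1. Men1 (menin), which tethers Kmt2a to HOX genes, was at 9.36, 9.63 and 9.54 in negative replicates 1, 2 and 3 and at 8.96 in the array labelled positive. Psip1, which links menin to chromatin, was at 9.71, 9.65 and 9.80 and at 10.21. Their other probe sets showed less. Those of Men1 differed by -0.13, within the negative range, and by -0.11, below it, and those of Psip1 by -0.05 and 0.39, both within it. The 14 genes listed as Polycomb include Kdm6a and Kdm6b, demethylases that act against Polycomb. Both lay below the negative range, with distances from it of -0.003 for Kdm6a, which is almost none, and -0.48 for Kdm6b. Of the 14, 6 lay above and 4 below, beside the same 23.6% and 23%. Most of the 6 were barely above: Cbx7, Eed, Ring1 and Rnf2 by 0.02, 0.03, 0.04 and 0.06, and Bmi1 and Pcgf2 by 0.22 and 0.73. The others below were Ezh1, at a distance of -0.05, and Cbx2, at -1.43. Their median difference was 0.01, which was 0.22 without negative replicate 1. Cbx2, a chromodomain subunit of Polycomb complex 1, was at 8.64, 8.86 and 9.22 and at 7.21, a difference of -1.70 with an SE of 0.30 (limma adjusted p = 0.980). In its second probe set, at 8.85, 8.90 and 7.74 and at 7.94, the array labelled positive lay within the negative range. Pcgf2 (Mel18), another subunit, was at 7.20, 7.65 and 7.74 and at 8.47, while its dimmer second probe set differed by -0.15.

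The caudal genes Cdx1, Cdx2 and Cdx4, which switch on HOX genes in the embryo, were all at or below the median level. Cdx1 was at 4.46, 4.41 and 4.22 in negative replicates 1, 2 and 3 and at 4.63 in the array labelled positive, and the others lay within the negative range. Of 10 retinoic acid pathway genes 1 lay above the range and 4 below, beside 23.6% and 23% of all genes, with a median difference of -0.10. limma called 0 of them, and 1 had an unadjusted p under 0.05, beside 4.03% of all genes. Rara, a retinoic acid receptor, was at 10.10, 9.68 and 9.27 and at 8.19. It lay 1.08 below the lowest negative array, with a difference of -1.49 and an SE of 0.39 (limma adjusted p = 1.00). Rxra, its dimer partner, was at 9.12, 8.98 and 8.05 and at 7.55, and all 3 Rxra probe sets had the array labelled positive lowest. Negative replicate 3 was the next lowest for both genes. The summed intensity of the macrophage markers was also low in replicate 3 and the array labelled positive (2638 and 3156 against 19975 and 19115), though lowest in replicate 3. So were the sums of the B lineage markers (3694 and 3710 against 17907 and 18558) and the endothelial markers (1139 and 893 against 3785 and 3136). The part of any of these cell types was not tested.

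Known targets of Hoxa9 or Meis1 had no common direction. Of 11 measured, 1 lay above the negative range, 4 below and 6 within, beside 23.6% of all genes above and 23% below, with a median difference of -0.09. limma called 0 of them, and 1 had an unadjusted p under 0.05, beside 4.03% of all genes. Cd34, a marker of progenitors, was at 11.42, 10.80 and 11.70 in negative replicates 1, 2 and 3 and at 11.87 in the array labelled positive. Flt3, a receptor of multipotent and lymphoid progenitors, was on the lower side, with a difference of -0.83.

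**Figure D4:**
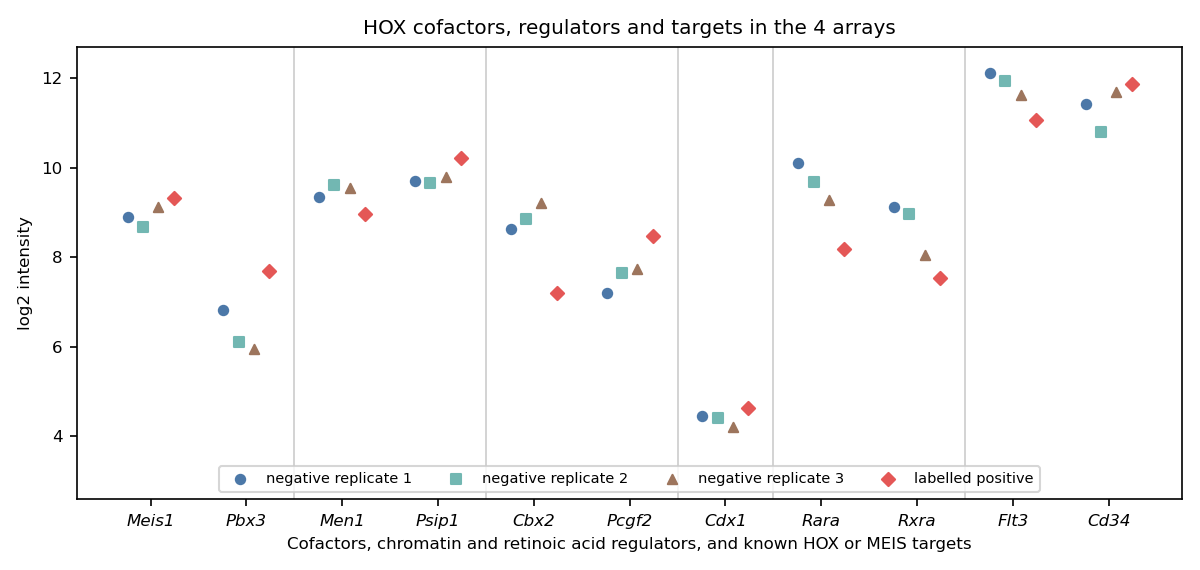
Log2 intensity in each of the 4 arrays of the HOX cofactors Meis1 and Pbx3, the trithorax partners Men1 and Psip1, the Polycomb genes Cbx2 and Pcgf2, the caudal gene Cdx1, the retinoic acid receptors Rara and Rxra, and the targets Flt3 and Cd34. The array labelled positive lies outside the negative arrays in each, since these genes were chosen for that; it is the lowest array for Rara, at 8.19, and the highest for Pbx3, at 7.69.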

How the data were processed

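Expression was measured on 1 Affymetrix array per sample. Per the labels' protocols, 5 ng of RNA went through Nugen Ovation amplification. Per the submitters' processing notes the deposited values were made with RMA. The deposited values are intensities on a linear scale, from 4.27 to 27451, as the values themselves show. Scanner files were not used here. Because RMA gives all arrays the same distribution, it hides any overall shift in RNA content.

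Analysis was on log2 of the intensity, without a pseudocount. Symbols came from the platform annotation, and each gene was given by its probe set with the highest mean. limma 3.58.1 (R 4.3.3) was fitted with lmFit and eBayes over 18193 genes, two-sided, with Benjamini-Hochberg adjustment at 0.05. The fit had 2 residual and 1.92 prior degrees of freedom. On simulated data of 18193 genes for this comparison it called 92.5% of genes changed by 4 log2 units and 0% of those changed by 1 or 2. In the measured arrays the differences over all genes ran from -4.34 to 4.74 log2 units, and limma still called none. The 92.5% describes the simulated data only, and whether it holds for these arrays was not tested. The number of arrays limits the precision.

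The members, lists and alternatives were chosen with earlier results of these data known. Values in every array are given for members with a mean above the median of all probe sets, a range of at least 1, or a positive value at least 0.5 outside the negative range. From each other list the text names Meis1 and at most 2 genes with the largest difference outside that range. The alternatives were a pseudocount of 16, cyclic loess, a filter on level, averaged or otherwise chosen probe sets, trend and robust settings, treat, a fit of all probe sets, and leaving out each negative array. Promoter sequences are RefSeq's (GRCm38.p6).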

Additional observations from a re-analysis of the deposited data

How the results depend on the processing

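The count of HOX genes called by limma was 0 under all 12 alternatives, with 0 to 3 genes at an unadjusted p under 0.05 and a lowest adjusted p of 0.478, without negative replicate 3. The median difference of HOX genes, -0.01, ranged from -0.03 to 0.02. The Hoxa median ranged from -0.11 to 0.14 and the Hoxb median from -0.20 to -0.068 as each negative array was left out, and the Hoxb median was -0.080 over all probe sets. HOX genes above the negative range numbered 8 to 11 and those below 9 to 12 with a negative array left out. They numbered 4 above with averaged probe sets and, among the 10 genes kept by the filter on level, 3 above and 1 below. Over all 48 probe sets 10 lay below, and the share of all probe sets in the series that did so was not counted. The shares of all genes at an unadjusted p under 0.05 were not counted for the alternatives either. The filter and the fit of all probe sets change the number of features, and a range over fewer arrays is narrower. For the change with averaging the cause was not tested. Among the 13 genes given by array, those that changed sign were Hoxa3 (-0.040 with cyclic loess, -0.038 with averaged probe sets, -0.22 to 0.38 with a negative array left out), Hoxa7 (-0.018 with cyclic loess, -0.14 to 0.14 with an array left out), Hoxa5 (0.40 with another probe set, without sets ending in _x_at or _s_at) and Hoxc6 (-0.014 with averaged probe sets), none of them called. Of the other 20 genes, 10 changed sign under at least 1 alternative, all with a reported difference of at most 0.090 in size. No paired analysis was possible because the groups share only replicate number 1. No detection calls were at hand, so the signal over background of the dim members is unknown.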

Other observations

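Antisense and opposite-strand genes of the clusters were no members. Hoxb5os was at 4.24, 6.04 and 4.80 in negative replicates 1, 2 and 3 and at 5.22 in the array labelled positive, a range of 1.79 log2 units, with negative replicate 2 highest. Hoxb5 itself had negative replicate 1 highest, at 6.17 against 5.78 in negative replicate 2. The probe sets of Hoxa11os and Hoxd3os1 lay between 2.71 and 3.60 in all arrays.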
